A study of Mus musculus with 77 samples.

Results

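The miRNAs of the Dlk1-Dio3 imprinted locus were read out in blood and in a brain region of mice after chronic social defeat stress (CSDS). The region was the BNST, the bed nucleus of the stria terminalis, which takes part in the control of anxiety. Members were taken by name. A row of a miRNA table belonged to the set when its number was that of 1 of 44 miRNA families listed for the locus, whatever its arm or copy suffix, a rule that uses no measured value. This gave 87 of the 788 rows of the BNST table and 19 of the 299 rows of the blood table. All 19 blood members were among the 87. All 44 families had at least 1 row.

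The locus lies on mouse chromosome 12 and is imprinted. The paternal chromosome expresses the protein-coding genes Dlk1, Rtl1 and Dio3, and the maternal chromosome expresses long noncoding RNAs (Meg3, Rian and Mirg) together with a large miRNA cluster. Each miRNA hairpin is cut from such a transcript and gives a 5p and a 3p arm, and an arm loaded into an Argonaute protein pairs through its seed, bases 2 to 8, with target mRNAs. miRNAs of this cluster are known for high expression in brain and placenta, and miR-134 for its control of dendritic spines.

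AGO2-bound RNA was precipitated from BNST of male C57BL/6Crl (B6) mice, 8 weeks of age at dissection, each library being a pool of mice. Control mice lived beside another mouse behind a divider, while defeated mice met an aggressor daily and were then called susceptible or resilient by their avoidance of an unfamiliar mouse. There were 5 control, 5 resilient and 3 susceptible pools for AGO2-bound miRNA, and 5, 5 and 4 for AGO2-bound mRNA. Susceptible pool 3 of the miRNA set was not analysed here. Trunk blood was collected from single male mice of the same age, 5 each of B6 control, B6 resilient, B6 susceptible, DBA/2Crl (D2) control and D2 susceptible, and gave 25 miRNA and 25 mRNA libraries. The labels name no transgene and no drug. Tissue was taken about a week after the last defeat.

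Libraries held 3173294 to 9404828 reads of AGO2-bound miRNA, 6916739 to 10113657 of blood miRNA, 3701281 to 10659882 of AGO2-bound mRNA and 9751603 to 15878495 of blood mRNA. All 5 neuron marker mRNAs chosen to check the tissue were measured in the BNST precipitates, with a summed level of 2098 to 2328 CPM in controls, and none of the 5 was in the blood mRNA table. In the blood data 2 D2 mice had a phenotype label that contradicted their column heading. D2 control 2 was labelled control and carried a column suffix for susceptible, and D2 susceptible 2 the reverse. Among column headings that share a prefix, mice with a control suffix all carried higher mouse numbers than the others. Under the labels that order failed for the prefix of these 2 mice. Groups followed the labels, and which grouping is right was not tested. The main counts of called members in D2 comparisons are also given with the column names and without these 2 mice. Other D2 values follow the labels unless stated. In bulk tissue and blood, fewer cells of a type and less RNA per cell cannot be told apart.

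All 46 hairpins behind the 87 BNST rows were placed on the plus strand of chromosome 12 (GRCm38), from 109563692 to 109743795, a span of 180104 bases. They formed 3 segments separated by more than 10000 bases. The segment from 109563692 to 109595388 held 11 hairpins and 21 members. Its hairpin of miR-770 lay in an exon of Meg3 (109541001 to 109571726), and the hairpins of miR-431, miR-433, miR-127, miR-434 and miR-136 lay opposite an exon of Rtl1, which is read from the minus strand (109589193 to 109600330). The segment from 109611500 to 109618336 held the hairpins of miR-341 and miR-370, both in introns of Rian (109603940 to 109661716), with 4 members. The segment from 109709060 to 109743795 held 33 hairpins and 62 members, of which 22 members lay within annotated Mirg (109729764 to 109749460) and 40 before it. A further 10 BNST rows lay between the start of Dlk1 (109452823) and the end of Dio3 (110281097) but outside the rule. They included arms of miR-1188, miR-1193, miR-1197, miR-1247 and miR-3072 and were counted with the other miRNAs. Of the blood members, 7 came from the Meg3 to Rtl1 segment, 0 from Rian and 12 from the segment that ends in Mirg.

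Mature sequences (RefSeq, GRCm38.p6) were found for 83 of the 87 members. They are printed 5′ to 3′ with the seed in capitals. The set below gives the most abundant member, miR-434-3p, and the members called between resilient and control pools, which the stress results turn on. The other 4 members are miR-376c-3p, miR-487b-3p, miR-539-3p and miR-485-5p.
miR-434-3p: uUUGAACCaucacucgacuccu
miR-485-3p: aGUCAUACacggcucuccucuc
miR-369-5p: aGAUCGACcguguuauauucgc
miR-541-5p: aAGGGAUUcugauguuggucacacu
miR-666-3p: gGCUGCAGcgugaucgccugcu
miR-376b-5p: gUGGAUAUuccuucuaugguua
miR-379-5p: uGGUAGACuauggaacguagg
miR-136-5p: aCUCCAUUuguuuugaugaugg
miR-382-3p: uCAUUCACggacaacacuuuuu
miR-412-5p: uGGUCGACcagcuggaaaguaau
miR-673-5p: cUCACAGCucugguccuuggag

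Each of these 11 had a seed of its own. Over the 83 sequences there were 81 different seeds, and the members that shared one came in 2 pairs, shown next with their shared seeds.
miR-379-3p: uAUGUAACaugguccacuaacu
miR-411-3p: uAUGUAACacgguccacuaacc
miR-494-5p: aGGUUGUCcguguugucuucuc
miR-410-5p: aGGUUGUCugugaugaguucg

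The members' base composition was close to that of the other miRNAs of the table. A U at the 5′ end stood in 37.3% of the 83 members and 40.2% of 565 other miRNAs with a sequence, and the median GC content was 50% in both.

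In AGO2 precipitates of the BNST the members took 20.7% to 25.4% of all miRNA reads. The median member had a mean level of 7.05 log2 CPM, where CPM is a miRNA's reads scaled to library size, against 3.15 for the 701 other rows. The median SD between pools of a group was 0.255 log2 units for members and 0.524 for the others. A mean under 1 log2 CPM was found in 5 of 87 members and 200 of the 701 others. The SDs were not compared at matched levels. The most abundant miRNA of the whole table was a member. miR-434-3p, cut from the strand opposite Rtl1, stood at 16.46, 16.41, 16.47, 16.23 and 16.36 log2 CPM in controls, 16.43, 16.59, 16.16, 16.32 and 16.41 in resilient pools and 16.32, 16.27 and 16.04 in susceptible pools. The groups overlapped and all pools lay within less than 1 log2 unit. It alone held 35.9% of the members' reads.

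The 10 most abundant members held 85.6% of the members' reads. In order of their reads they were miR-434-3p, miR-541-5p, miR-410-3p, miR-136-3p, miR-381-3p, miR-411-5p, miR-300-3p, miR-433-3p, miR-127-3p and miR-485-3p. After the gap from miR-434-3p to miR-541-5p, which stood at 9.60% of member reads, a further gap lay between miR-127-3p and miR-485-3p, which held 1.54%. The pools of miR-127-3p (12.68 to 13.73 log2 CPM) did not overlap those of miR-485-3p (11.12 to 12.40). miR-541-5p ranged from 14.13 to 14.67 log2 CPM over the 13 pools and did not overlap miR-434-3p, whereas miR-410-3p (13.93 to 14.41) overlapped both it and miR-136-3p (13.75 to 14.23). The Meg3 to Rtl1 segment took a median of 12.9%, 12.8% and 12.6% of a pool's reads in control, resilient and susceptible pools. The Rian pair took 0.239%, 0.234% and 0.252%, and the segment ending in Mirg took 9.22%, 10.4% and 9.90%. The ranges of the groups overlapped in every segment.

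**Figure D1:**
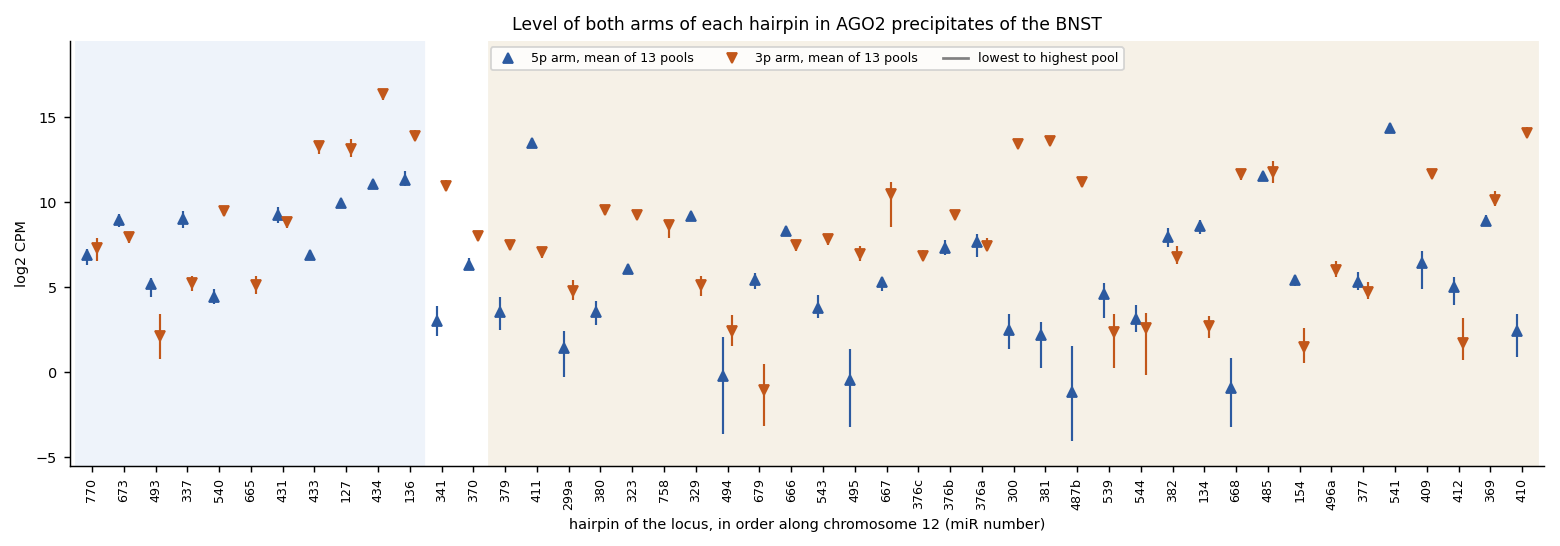
Level of the 5p arm (blue, upward triangles) and the 3p arm (orange, downward triangles) of each hairpin in AGO2 precipitates, in log2 CPM, ordered along chromosome 12. Triangles are means of 13 pools, lines run from the lowest to the highest pool, and shading marks the Meg3 to Rtl1 segment and the segment ending in Mirg. miR-434-3p stands highest at 16.34, and in most hairpins the arms lie far apart.

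Which arm AGO2 held was read as the 5p minus 3p difference in log2 CPM. Both arms were in the table for 41 member hairpins, of which 16 had the higher 5p arm and 25 the higher 3p arm. The median difference was -1.96, against -0.02 for 179 other hairpins, and the arms differed by more than 10-fold in 22 of 41 member hairpins and 86 of 179 others. The extremes were miR-668, at -12.54 toward its 3p arm, and miR-679, at 6.53 toward its 5p arm. Their lesser arms had few reads, 0 to 10 a pool for miR-668-5p and 0 to 7 for miR-679-3p, so neither size is exact. In 5 hairpins (miR-485, miR-376a, miR-431, miR-544 and miR-377) the sign of the difference changed between pools. The arms of a hairpin did not vary closely together. Over the 13 pools, as deviations from group means, the median Pearson correlation between arms was 0.22 in member hairpins, above 0 in 29 of 41, and 0.15 in the other hairpins. These pools share library depth, and the correlation is given as a description.

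Resilient and control pools were compared to ask which AGO2-bound miRNAs mark mice that withstood defeat. A miRNA was called where limma gave an unadjusted p under 0.05 and a fold of at least 1.2, and Benjamini-Hochberg adjusted values run over all 788 rows. Of the 87 members, 7 rose and 3 fell, 11.5% of the set, while 9.52% of all rows were called. Of the 701 other rows, 24 rose and 41 fell. The median member difference was 0.00 log2 units, against -0.01 over the others. The share of members called was thus near the background, and a single member passed the adjusted threshold. Among 5p members 7 of 42 were called and among 3p members 3 of 45, against 37 of 336 and 24 of 322 of the other rows named 5p and 3p. By position, 5 of the 22 members within Mirg were called, 3 of the 40 before Mirg, 2 of the 21 of the Meg3 to Rtl1 segment and 0 of the 4 of Rian.

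miR-485-3p was that member. It is read from a Mirg exon (hairpin at 109734902 to 109734974). It stood at 12.15, 12.14, 12.01, 12.15 and 12.40 log2 CPM in control pools, 11.15, 11.31, 11.65, 11.42 and 11.12 in resilient pools and 12.25, 11.81 and 11.73 in susceptible pools. Every resilient pool lay below every control and every susceptible pool, and susceptible pools overlapped controls. The resilient mean was lower by -0.84 log2 units (SE 0.12), a decrease to 0.559 of the control level (limma p = 1.29e-06, adjusted p = 0.000892, exact two-sided permutation p = 0.00794). This exact p is the smallest that 5 against 5 pools allow. Counts behind it were 8393 to 26997 reads a pool, and it passed the adjusted threshold in all 22 alternative analyses, with adjusted p from 0.000255 to 0.0358.

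Its other arm did not move with it. miR-485-5p stood at 11.70, 11.71, 11.60, 11.37 and 11.43 log2 CPM in controls, 11.54, 11.45, 11.56, 11.74 and 11.64 in resilient pools and 11.47, 11.76 and 11.43 in susceptible pools. The 3 groups overlapped throughout. The resilient to control difference was 0.03 log2 units (SE 0.10, limma adjusted p = 0.932).

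**Figure D2:**
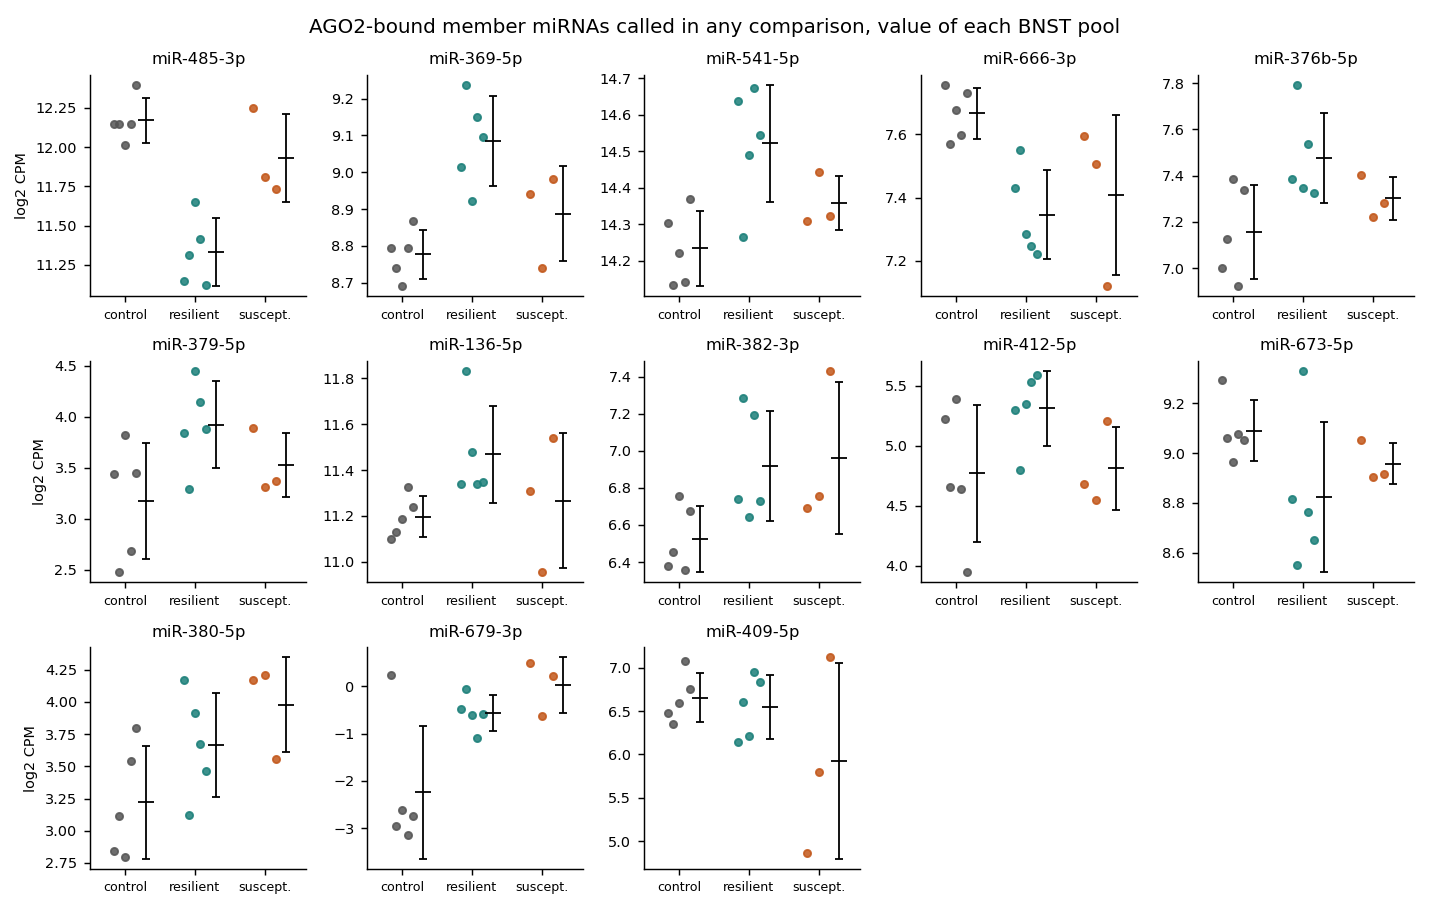
Level in log2 CPM of each of the 13 members called in any BNST comparison, with 1 point per pool and the mean and SD of each group beside the points. The vertical scale differs between panels and does not start at 0. For miR-485-3p all 5 resilient pools (11.12 to 11.65) sit below all control pools (12.01 to 12.40).

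Of the other called members, miR-369-5p, miR-666-3p and miR-136-5p had resilient pools apart from controls. They and miR-485-3p were named for their limma p on the same pools, so their exact p is no independent support. The share of all rows so separated is not given here. Such separation was not particular to called members. miR-434-5p, which was not called, reached 11.05 log2 CPM in controls and began at 11.06 in resilient pools. miR-369-5p, from a Mirg exon, stood at 8.79, 8.74, 8.69, 8.79 and 8.87 log2 CPM in controls, 9.02, 9.24, 8.92, 9.15 and 9.10 in resilient and 8.94, 8.74 and 8.98 in susceptible pools. All resilient pools exceeded all controls, and susceptible pools overlapped both. The difference from controls was 0.31 log2 units (SE 0.09, limma p = 0.00387, adjusted p = 0.218, exact permutation p = 0.00794), and it stayed called in all 22 alternatives.

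miR-666-3p, from before Mirg, stood at 7.76, 7.57, 7.68, 7.60 and 7.73 log2 CPM in controls, 7.43, 7.55, 7.28, 7.25 and 7.22 in resilient and 7.60, 7.51 and 7.12 in susceptible pools. All resilient pools were below all controls, by a narrow gap, and the lowest value was a susceptible pool. The resilient difference was -0.32 log2 units (SE 0.12, limma p = 0.0129, adjusted p = 0.303, exact permutation p = 0.00794), called in all 22 alternatives.

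miR-136-5p, which lies opposite Rtl1, stood at 11.10, 11.13, 11.19, 11.33 and 11.24 log2 CPM in controls, 11.34, 11.83, 11.48, 11.34 and 11.35 in resilient and 11.31, 10.95 and 11.54 in susceptible pools. Resilient pools exceeded controls by the slightest margin, and resilient pool 2 was far above the rest. The difference of 0.27 log2 units (SE 0.12, limma p = 0.0303, adjusted p = 0.325, exact permutation p = 0.00794) was lost in 7 of 22 alternatives. Leaving out control 1, control 2 or resilient 2 ended the call, at 0.25, 0.26 and 0.18.

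The remaining called members overlapped between groups. miR-541-5p, the second most abundant member, stood at 14.30, 14.13, 14.22, 14.14 and 14.37 log2 CPM in controls, 14.64, 14.26, 14.49, 14.67 and 14.55 in resilient and 14.31, 14.44 and 14.32 in susceptible pools. Resilient pool 2 lay among the controls and the other resilient pools above them. The difference was 0.29 log2 units (SE 0.09, limma p = 0.00615, adjusted p = 0.260, exact permutation p = 0.0238), and it was lost in 4 of 22 alternatives. These were quantile normalization, at 0.19, and leaving out control 2, resilient 1 or resilient 4, at 0.25 to 0.26.

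miR-379-5p, at the 5′ end of the segment that ends in Mirg, was a low member in the BNST, with 21 to 183 reads a pool. Its levels were 3.44, 2.48, 3.82, 2.69 and 3.45 log2 CPM in controls, 3.84, 3.29, 4.45, 4.14 and 3.88 in resilient and 3.89, 3.32 and 3.37 in susceptible pools. Most resilient pools were high, with resilient pool 2 among the controls. The difference was 0.75 log2 units (SE 0.30, limma p = 0.0241, adjusted p = 0.325, exact permutation p = 0.0635), the largest rise among the called members, and was lost in 4 alternatives that each left out 1 pool, control 2 or 4 or resilient 3 or 4, at 0.57 to 0.69.

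miR-376b-5p stood at 7.00, 7.13, 7.39, 6.92 and 7.34 log2 CPM in controls and 7.38, 7.79, 7.35, 7.53 and 7.33 in resilient pools. The susceptible pools, at 7.40, 7.22 and 7.28, overlapped both. The resilient difference was 0.32 log2 units (SE 0.13, limma adjusted p = 0.303), lost without control 1, control 4 or resilient 2, at 0.24 to 0.28. miR-382-3p, from a Mirg exon, differed by 0.39 (SE 0.17, limma adjusted p = 0.325), with 2 resilient pools, at 7.28 and 7.19, above all controls and the others among them. Leaving out control 1, 2 or 4 or resilient 2 or 4 ended that call, at 0.30 to 0.37.

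The largest p-values among the 10 were those of miR-412-5p, at 0.54 log2 units (SE 0.25), and miR-673-5p, at -0.27 (SE 0.13). These 2 are named after their values were seen, to complete the 10, and were lost in 9 and 16 of 22 alternatives, of which 8 and 10 each left out 1 pool. miR-434-5p and miR-411-5p each rose by 0.22 log2 units with limma p of 0.0141 and 0.0300 but fell short of the fold of 1.2 and were not called. The other arms of the called members that the table held were not called. Among them, miR-369-3p differed by -0.04 log2 units (SE 0.14), miR-376b-3p by -0.02 (SE 0.10), miR-379-3p by -0.12 (SE 0.12), miR-666-5p by -0.07 (SE 0.13), miR-136-3p by 0.10 (SE 0.09) and miR-382-5p by 0.16 (SE 0.20).

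**Figure D3:**
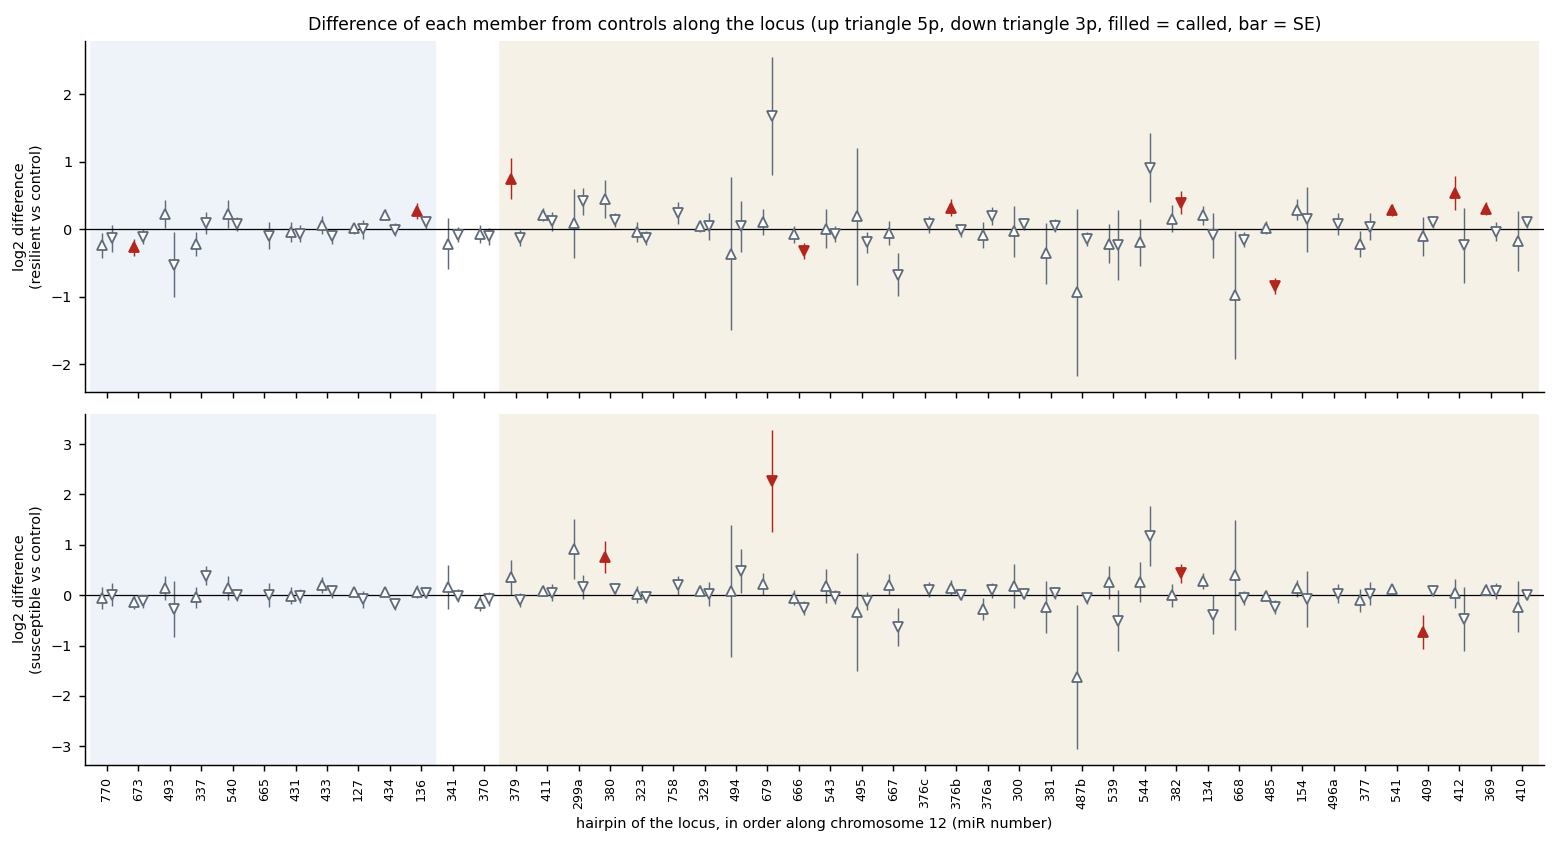
Log2 difference of each member from controls in AGO2 precipitates (top, resilient; bottom, susceptible), ordered along chromosome 12, with upward triangles for 5p arms, downward triangles for 3p arms and bars of 1 SE. Filled red symbols are called members, 10 in the upper panel and 4 in the lower one. In the upper panel miR-485-3p is the lowest of the called members, at -0.84.

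Markers of other cell types were set beside these results. In the same precipitates both arms of the endothelial miRNA list were called higher in resilient pools (median 0.37 log2 units, summed level 4293 to 6333 CPM against 3643 to 4951 in controls), and so were 2 of 6 rows of the blood cell list (summed level 513.0 to 896.0 CPM against 446.2 to 593.6). Of the 6 rows of the neuron list 1 was called lower (summed level 19871 to 27785 CPM against 22870 to 33596). Their part in the member results was not tested.

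Susceptible and control pools were compared to ask which miRNAs mark mice that yielded to defeat. Of the 87 members 3 rose and 1 fell, while 4.7% of all rows were called. The median member difference was 0.03 log2 units, against -0.03 over the others. No member passed the adjusted threshold of limma, 4 members had an unadjusted p under 0.05, and the smallest adjusted p of the 4 was 0.884. All 4 came from the segment that ends in Mirg, and in each the groups overlapped.

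miR-380-5p stood at 2.85, 3.12, 2.80, 3.54 and 3.80 log2 CPM in controls, 4.17, 3.12, 3.91, 3.68 and 3.46 in resilient and 4.17, 4.21 and 3.56 in susceptible pools. Susceptible pools were mostly above controls and overlapped resilient pools. It differed by 0.76 log2 units from controls (SE 0.33, limma p = 0.0317, exact permutation p = 0.0536, where 0.0179 is the smallest that 3 against 5 pools allow), from 21 to 51 reads a control pool. Leaving out control 1, 2 or 3 or susceptible 1 or 2 ended the call, at 0.64 to 0.73.

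miR-382-3p stood at 6.38, 6.45, 6.76, 6.36 and 6.68 log2 CPM in controls, 6.74, 7.28, 6.64, 7.19 and 6.73 in resilient and 6.69, 6.76 and 7.43 in susceptible pools. It was the only member called against controls in both defeated groups, and its susceptible mean was set by pool 4. The difference of 0.43 log2 units (SE 0.19, limma p = 0.0379, exact permutation p = 0.0536) was 0.20 without that pool and no longer called, and was lost too without control 1, 2 or 4, at 0.39 to 0.42. Both comparisons share the control pools.

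miR-409-5p fell by 0.72 log2 units (SE 0.34, limma p = 0.0467, exact permutation p = 0.196). Its susceptible pools stood at 4.87, 5.80 and 7.12 log2 CPM, the last above every control (6.48, 6.36, 6.60, 7.08 and 6.76), so that the spread within the susceptible group was wider than the difference. The call was lost in 14 of 22 alternatives, and the difference was -0.19 without susceptible pool 1. The fourth, miR-679-3p, was counted at 4, 0, 0, 0 and 0 reads in controls, 4, 4, 5, 4 and 2 in resilient and 7, 2 and 7 in susceptible pools. At so few reads no fold is given.

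Susceptible and resilient pools were then compared directly. Of the 87 members 1 was called, while 3.93% of all rows were. This was miR-485-3p, higher in susceptible pools by 0.60 log2 units (SE 0.14, limma p = 0.000355, adjusted p = 0.279) with no overlap (exact permutation p = 0.0179, the smallest possible), and called in all 22 alternatives. Its susceptible level differed from controls by -0.24 log2 units (SE 0.14, limma p = 0.0981, exact permutation p = 0.179). The comparisons share pools. Of the miRNA markers, 2 of 6 neuron rows were called higher in susceptible than in resilient pools (median 0.31 log2 units, summed level 26291 to 29884 CPM against 19871 to 27785) and 1 of 2 endothelial rows lower (3914 to 5490 CPM against 4293 to 6333). Their part in this result was not tested.

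Arm balance was tested in the same way, on the 5p minus 3p difference of each hairpin within a pool. Against controls, resilient pools had a called difference in 5 of 41 member hairpins, while 11.8% of all 220 hairpins were called. For miR-485 the balance was -0.44, -0.44, -0.41, -0.78 and -0.97 log2 units in controls, 0.39, 0.13, -0.09, 0.33 and 0.52 in resilient and -0.77, -0.05 and -0.30 in susceptible pools. Controls and susceptible pools held more 3p than 5p, 4 of 5 resilient pools held more 5p, and resilient pools did not overlap controls. The shift was 0.86 log2 units (SE 0.18, limma adjusted p = 0.0419, exact permutation p = 0.00794). It stayed called in all 20 alternatives, and its adjusted p ran from 0.00213 to 0.196.

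The balance of miR-379 ran from -4.92 to -3.85 log2 units in controls and from -3.89 to -3.21 in resilient pools, a shift of 0.87 (SE 0.25, limma adjusted p = 0.260) toward the 5p arm that stayed called in all 20 alternatives. miR-376b (0.34, SE 0.13) and miR-369 (0.34, SE 0.15) shifted the same way, with limma adjusted p of 0.340 and 0.385, and were lost in 4 and 11 of 20 alternatives, 3 and 9 of which left out 1 pool. The miR-679 shift rests on the few 3p reads given above. Between susceptible and control pools, with a background of 7.27%, only miR-679 was called among the member hairpins. Between susceptible and resilient pools, with a background of 5%, only miR-485 was called, at -0.63 (SE 0.21, limma p = 0.0119, adjusted p = 0.888, exact permutation p = 0.0357), and it was lost without susceptible pool 1, at -0.43. These tests use the same reads as the tests of each arm and add no independent pools.

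The rows whose pattern over the 13 pools was most like that of miR-485-3p were all outside the locus. By Pearson correlation they were let-7d-3p (0.92), miR-328-3p (0.89), miR-345-3p (0.89), miR-320-3p (0.88) and miR-532-5p (0.86), and the most alike member was miR-673-5p (0.69). The pools share depth and groups, so these values are a description. let-7d-3p was lower in resilient pools than in controls by -0.57 log2 units and miR-328-3p by -0.54.

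Host transcripts and known targets were read from the AGO2-bound mRNA of the same tissue. The series held no input library of the BNST. A change in the amount of a transcript and a change in its binding to AGO2 therefore cannot be told apart. The paper paired miRNAs with AGO2-bound mRNAs that changed in the same direction. Of 17 genes listed for the locus and as targets 14 were in the table. Among the listed genes Mirg and Bcl6 were called between resilient and control pools, where 17.7% of all 16587 genes were called. Mirg and Cdh2 were called between susceptible and control pools, at a background of 18.9%, and Cdh2 between susceptible and resilient pools, at 2.14%.

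Mirg, the noncoding RNA whose exons and introns hold 12 of the hairpins, stood at 9.07, 9.13, 9.04, 9.0 and 9.05 log2 CPM in controls, 9.62, 9.79, 9.20, 9.51 and 9.83 in resilient and 9.52, 9.50, 9.48 and 9.79 in susceptible pools. Every defeated pool lay above every control, and the resilient and susceptible pools overlapped. The difference from controls was 0.53 log2 units in resilient pools (SE 0.11, limma adjusted p = 0.0255) and 0.52 in susceptible pools (SE 0.12, limma adjusted p = 0.0236). The exact permutation p was 0.00794 in both, the smallest possible. The comparisons share the control pools, and the share of all genes so separated is not given here. Both calls were kept in all 23 alternatives, with adjusted p up to 0.0756 and 0.0762.

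The other long transcripts of the locus were not called. Meg3 stood at 5.96 to 6.14 log2 CPM in controls, 5.96 to 6.53 in resilient and 5.99 to 6.46 in susceptible pools, a resilient difference of 0.23 (SE 0.11, limma p = 0.0506, exact permutation p = 0.0476). Rian differed by 0.07 (SE 0.10) and 0.12 (SE 0.11) in resilient and susceptible pools. Dlk1, a Notch ligand-like membrane protein, ran from 1.48 to 2.25 log2 CPM in all pools but resilient pool 5, at -0.43. Begain, a postsynaptic density protein gene beside the locus, differed by -0.20 (SE 0.17) and -0.27 (SE 0.18).

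**Figure D4:**
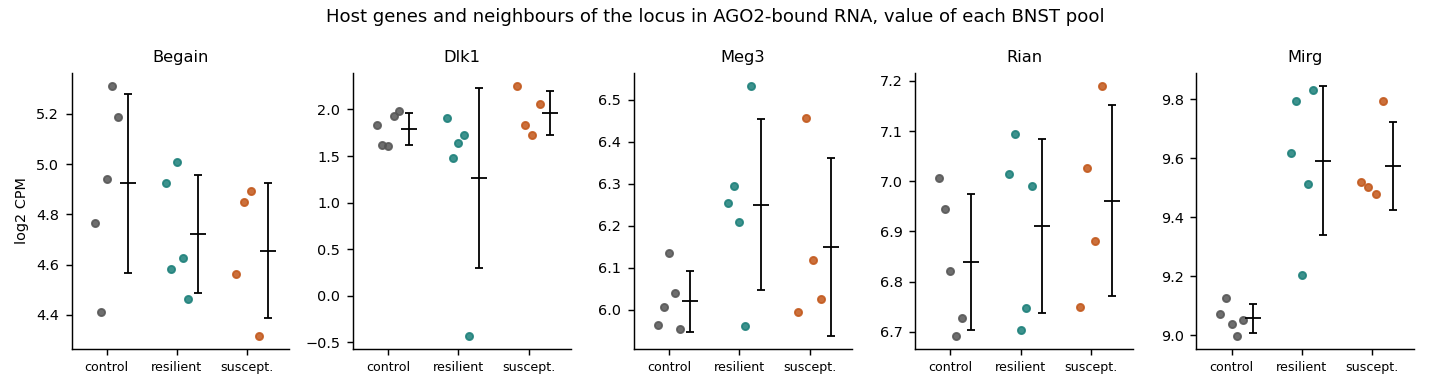
Level in log2 CPM of the 5 genes of the locus measured in AGO2-bound mRNA, with 1 point per pool and the mean and SD of each group beside the points. The vertical scale differs between panels and does not start at 0. Mirg lies at 9.0 to 9.13 in controls and at 9.20 to 9.83 in the 9 pools of defeated mice.

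Of the 9 listed targets, Cdh2, which encodes N-cadherin, stood at 7.15, 7.86, 7.52, 7.16 and 6.74 log2 CPM in controls, 7.31, 7.19, 6.42, 7.07 and 7.43 in resilient and 6.83, 6.03, 6.92 and 6.43 in susceptible pools. Susceptible pools were low and just overlapped the other groups. Cdh2 differed from controls by -0.74 log2 units (SE 0.23, limma p = 0.00473, adjusted p = 0.0760, exact permutation p = 0.0317), called in all 23 alternatives, and from resilient pools by -0.53 (SE 0.23, limma p = 0.0315, adjusted p = 1.00, exact permutation p = 0.103), lost in 7, at -0.36 without susceptible pool 2. Bcl6, a transcriptional repressor gene, differed by -0.35 (SE 0.16, limma p = 0.0410, adjusted p = 0.221, exact permutation p = 0.0952) in resilient pools and was lost in 10 of 23 alternatives, at -0.24 without resilient pool 1. Sv2a, which encodes a synaptic vesicle protein, differed by 0.00 log2 units (SE 0.08) in resilient pools and -0.10 (SE 0.09) in susceptible pools. miR-485 is known to repress Sv2a, and which arm acts on it was not tested here. Pum2 (-0.17, SE 0.08, and -0.18, SE 0.08), Limk1 (0.21, SE 0.16, and 0.20, SE 0.17) and Creb1 (-0.16, SE 0.09, and -0.17, SE 0.09), the targets linked to miR-134, did not reach a fold of 1.2 and were not called, nor were Kremen1, Bdnf and Eed.

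Cell type markers moved in the mRNA precipitates too. All 5 choroid plexus markers were called lower in susceptible pools than in controls (median -2.80 log2 units, summed level 12.3 to 60.4 CPM against 32.9 to 187.5), and 1 of 5 in resilient pools (23.2 to 137.4 CPM). Of 5 neuron markers 4 were called lower in susceptible pools (median -0.38, summed level 1471 to 2006 CPM against 2098 to 2328) and 1 in resilient pools (1893 to 2072 CPM). Their part in the results on Mirg and Cdh2 was not tested.

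In blood the measured rows of the locus were faint. The 19 members took between 0.00581% and 0.0496% of a mouse's miRNA reads, and 18 of the 19 were 5p arms, in a table that held 254 rows named 5p and 17 named 3p. miR-434-3p, with 35.9% of the members' reads in the BNST, had no row in blood. The blood share thus leaves out most 3p arms and cannot be set against the BNST share. The order of levels differed from the BNST. miR-379-5p led in blood of B6 controls at 6.45 ± 1.05 log2 CPM (SD, n = 5), and it was the second lowest of these 19 in BNST controls, at 3.17 ± 0.57 (SD, n = 5). miR-411-5p (5.39 ± 1.08), miR-541-5p (4.18 ± 0.94), miR-382-5p (3.02 ± 1.03) and miR-337-5p (2.71 ± 0.78) followed in blood, with spreads that overlapped from each to the next. The blood and BNST libraries were made with different kits and scaled separately, so no test was run between them.

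No member was called for stress in B6 blood under the labelled groups. The count was 0 of 19 between resilient and control mice (background 4.35%), 0 of 19 between susceptible and control mice (background 4.01%) and 0 of 19 between susceptible and resilient mice (background 3.01%). No member had an unadjusted limma p under 0.05 in any of these 3. The median member difference was 0.33 log2 units in resilient mice, with 16 of 19 above 0, against -0.02 for the other miRNAs, and 0.16 in susceptible mice, with 15 of 19 above 0, against 0.05. The members varied together within a mouse, as given below, so these are not counts of separate observations. In B6 control 1 all 19 lay below their group mean. miR-379-5p stood at 4.74, 7.43, 6.85, 6.98 and 6.23 log2 CPM in B6 controls, 7.53, 6.37, 6.53, 6.35 and 7.31 in resilient and 7.53, 6.30, 6.52, 6.75 and 5.93 in susceptible mice. Control mouse 1 was lowest and the groups overlapped. The differences from controls were 0.37 log2 units (SE 0.52, limma adjusted p = 0.949) and 0.16 (SE 0.52, limma adjusted p = 0.990). In the mRNA of B6 blood, 4 of 5 platelet markers were called higher in susceptible than in control mice (median 0.89 log2 units), and their part was not tested.

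In D2 blood the result rested on the 2 mice with contradictory names. Between susceptible and control mice the paper reports more nominally changed blood genes in D2 than in B6. Under the labels used here, 206 blood mRNAs were called in D2 and 589 in B6 mice. The cause of this discrepancy was not tested. Under the labels 0 of 19 members were called between susceptible and control mice (background 8.7%), with a median of -0.03 log2 units. Under the column names 3 of 19 were called (background 12.4%), miR-299a-3p, miR-382-5p and miR-541-5p, with a median of 0.73 and 18 of 19 above 0. Members varied together within a mouse here too, so they are not separate observations. Without both mice 1 of 19 was called (background 12.4%), miR-299a-3p, at a median of 0.43. No adjusted limma p passed under any of the 3 settings, the smallest being 0.635, 0.235 and 0.279. miR-379-5p in D2 mice stood at 7.03, 7.56, 4.62, 4.75 and 4.95 log2 CPM in mice labelled control and 6.55, 5.70, 5.61, 5.21 and 5.60 in mice labelled susceptible. The labelled controls covered the whole range of the susceptible mice, with D2 control 2 highest. The high controls 1 and 2 carried the column prefixes ED3 and ED4, and the low controls 3, 4 and 5 the prefix ED6. Within ED3 the susceptible mouse (6.55) lay below the control (7.03), and within ED6 susceptible mouse 5 (5.60) lay above all 3 controls. Within ED4 the mice labelled susceptible 2, 3 and 4 lay below the labelled control. Both mice with contradictory names were in ED4. Under the column names its control stood at 5.70 and its susceptible mice at 7.56, 5.61 and 5.21, so that order did not hold. Without both mice ED4 held no control. With the prefix as a term of the fit under the labels, 0 of 19 members were called. The share of all rows called in that fit is not given here.

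The count of differences between strains turned on single mice. Between B6 and D2 controls, 1 of 19 members was called under the labels (background 25.4%), 8 of 19 under the column names (background 28.4%) and 8 of 19 without the 2 mice (background 27.8%). Leaving out D2 control 2 alone also gave 8 calls, while leaving out B6 control 1 gave 5, D2 control 1 gave 3 and any of B6 controls 2, 3 and 4 or D2 controls 3, 4 and 5 gave 0. The share of all rows called in each of these fits is not given here, so whether the counts concern the members or the whole table cannot be told. No column prefix was shared by the strains, so prefix and strain cannot be told apart. The member called under the labels was miR-376b-5p, at 0.32, 2.12, 1.70, 1.61 and 0.29 log2 CPM in B6 controls and 1.05, 1.68, -2.52, -0.46 and -0.18 in D2 controls. B6 mice were mostly higher but the groups overlapped, and the D2 values came from 1 to 27 reads. The difference was 1.29 log2 units (SE 0.60, limma adjusted p = 0.159, exact permutation p = 0.151) and 1.73 without the 2 mice (limma adjusted p = 0.0465). The adjusted threshold was also passed by miR-673-5p under the column names (limma adjusted p = 0.0298) and by miR-299a-3p without the 2 mice (limma adjusted p = 0.0387). In the whole set 16 of 19 members were above 0 under the labels, with a median of 0.55 log2 units, and 18 of 19 under either other setting, at 0.82 and 0.90. As the members varied together within a mouse, a few mice can set these counts. Between the same groups of controls, 4 of 4 B cell and 3 of 5 erythroid marker mRNAs were called higher in B6 mice, and 3 of 5 platelet, 2 of 3 monocyte and 1 of 3 T cell markers lower. Their part in the strain difference was not tested. A difference of the stress effect between strains was found at p under 0.05 in 0 of 19 members under the labels (background 4.35%), 1 of 19, miR-673-5p, under the column names (background 6.69%) and 0 of 19 without both mice (background 5.69%).

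The blood members varied together from mouse to mouse within groups. Between every pair of the 19, deviations from group means correlated positively over the 25 mice, in 171 of 171 pairs, with a median Pearson r of 0.66 and a range of 0.23 to 0.96. Among 192 other miRNAs in the members' range of mean levels the median was 0.01, and 51.0% of pairs were above 0. The median was 0.71 in the B6 mice alone, 0.68 in the D2 mice alone, 0.61 without the 2 D2 mice with contradictory names and 0.56 without the 2 mice that deviated most, where 170 of 171 pairs were above 0. Within single groups of 5 mice it was 0.87 in B6 control, 0.64 in B6 resilient, 0.68 in B6 susceptible and 0.84 in D2 control mice, but 0.36 in D2 susceptible mice, where 132 of 171 pairs were above 0. These values are descriptions, since the points share a mouse, a library and its depth. The BNST members showed little of it, at a median of 0.05 with 2049 of 3741 pairs above 0. BNST libraries were pools of mice and blood libraries single mice, and the member sets differed. These medians therefore do not compare the tissues.

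The mice differed in which way the whole set lay. In B6 control 1 all 19 members were below their group mean (median deviation -1.14 log2 units), and in B6 controls 2, 3 and 4 all 19 were above (0.98, 0.53 and 0.51). All 19 were likewise above in B6 resilient 1 (0.80), B6 susceptible 1 (0.94) and D2 control 2 (1.63), 1 of the 2 mice with contradictory names. The median deviation over all 299 miRNAs in these mice ran from -0.02 to 0.10. The median SD within groups was 0.93 log2 units for members and 0.55 for the others in their range.

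**Figure D5:**
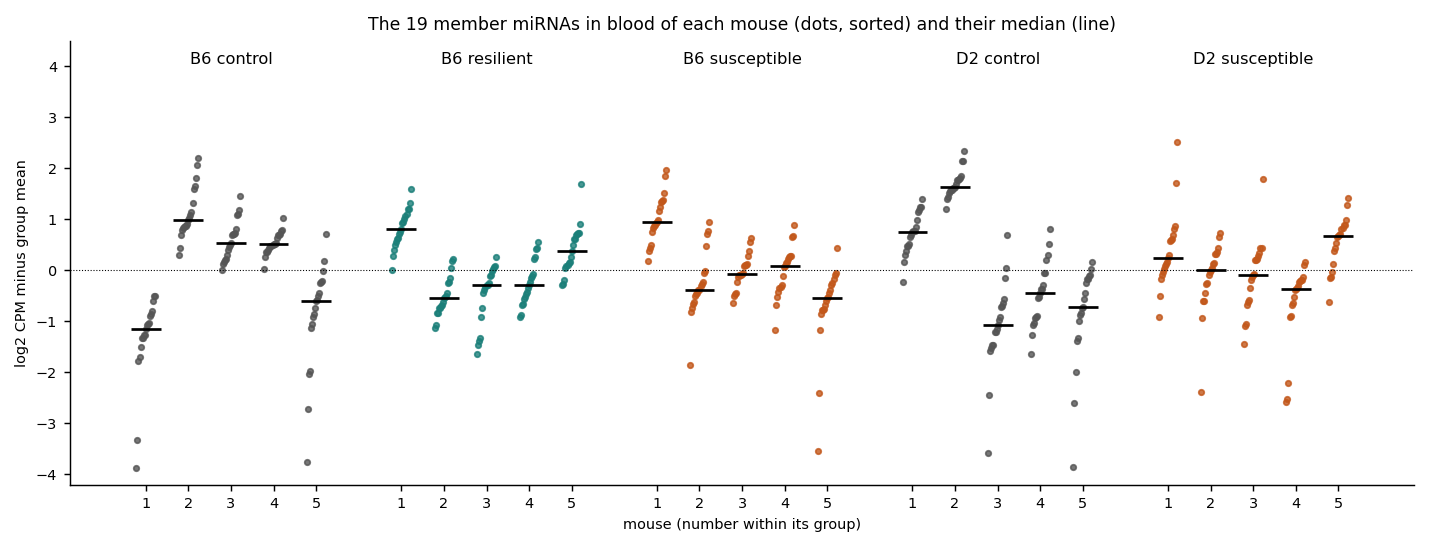
Deviation of each of the 19 blood members (dots, sorted within a mouse) from its group mean, in log2 CPM, for 5 mice in each of 5 groups, with the median of a mouse as a line. In mice such as B6 control 1 and D2 control 2 the whole set lies on one side of 0, with medians of -1.14 and 1.63.

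Blood cell markers were set beside this shift. Over the 25 mice, the members' median deviation correlated with the mean deviation of 5 neutrophil marker mRNAs at Pearson r = 0.53 (Spearman rho 0.54, r = 0.46 without the 2 farthest mice). For platelets r was -0.39, for erythroid cells -0.28, for monocytes 0.20, for T cells 0.06 and for B cells 0.04. Without the 2 farthest mice these were -0.25, -0.41, -0.09, 0.24 and -0.14, so the values for monocytes and B cells changed sign. These are descriptions over mice of 5 groups, and the part of blood composition in the members' shift was not tested.

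The blood mRNA table held 7 of the 17 listed genes, all of them targets, and none of the long transcripts of the locus. Sv2a alone was called, at 1 to 18 reads a mouse. Between B6 susceptible and resilient mice (background 2.03%) it differed by 0.96 log2 units (SE 0.42, limma p = 0.0290, adjusted p = 1.00, exact permutation p = 0.151) with overlap. Between B6 and D2 controls (background 26.4%) it stood at -0.94, -0.70, -1.41, -0.77 and -0.93 log2 CPM in B6 and -0.28, -0.28, 0.22, -0.10 and 0.42 in D2 controls, without overlap. The difference was -0.95 (SE 0.42, limma adjusted p = 0.135, exact permutation p = 0.00794), -0.97 under the column names and -1.02 without the 2 mice. It was no longer called under quantile normalization or without B6 control 3, D2 control 3 or D2 control 5. The share of all genes without overlap is not given here. Under the labels no listed gene was called for stress against controls. The backgrounds were 2.11% (B6 resilient), 4.5% (B6 susceptible) and 1.57% (D2 susceptible). In these comparisons limma gave each listed gene an unadjusted p above the threshold, the smallest being 0.0622 for Bcl6 in D2 mice. Over all blood comparisons 3 listed genes were called under the column names and 2 without the 2 mice. The comparisons in which these calls fell are not given here.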

How the data were processed

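The deposited files hold log2 CPM made by the authors with voom, for rows with at least 1 CPM in at least 3 (AGO2) or 6 (blood) samples, per the study's methods. Small RNA reads were mapped by the authors with Bowtie 1.1.1 and quantified with miRDeep2 against miRBase, and mRNA reads with STAR and HTSeq. AGO2 libraries were made with TruSeq Small RNA and blood libraries with NEXTflex kits. The authors' later correction for surrogate variables or cohort was not used here. Reads were recovered from the values (100% whole within 0.0001 reads after a pseudocount of 0.5) and printed as depth. Intervals of SE cover the spread between samples only, and whether pools shared mice is not given in the sources used here.

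Each whole table was fitted with limma 3.58.1 (lmFit, eBayes with trend), with contrasts between the labelled groups and Benjamini-Hochberg adjustment over the table. Calls needed p under 0.05 and a fold of 1.2. Exact permutation tests were two-sided. The share of all features whose groups did not overlap is not given here, so separation of a named feature has no background. Alternatives changed the scaling, weights, filter, pseudocount, samples and replicate block. Sequences came from RefSeq. The members and gene lists were chosen with earlier results of these data known. Members named were those past the adjusted threshold, the 8 called members of smallest p in each comparison, the 10 (BNST) and 5 (blood) most abundant, those called repeatedly, and their other arms.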

Additional observations from a re-analysis of the deposited data

Results flagged for a closer look

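Of 211 groups of values checked, 12 held a sample whose gap to its nearest neighbour took up an unusually large part of the group's range, and chance gives about 1 in 20. In AGO2-bound miRNA, resilient pool 2 stood apart for miR-136-5p (11.8 log2 CPM, next 11.5) and miR-410-3p (14.4, next 14.1), resilient pool 3 for miR-300-5p (1.36, next 2.65) and resilient pool 5 for miR-381-5p (0.26, next 2.23). Control pool 4 stood apart for miR-433-3p (13.1, next 13.4), and control pool 1 for miR-679-3p (0.24, next -2.63), where the other controls had no read. In AGO2-bound mRNA, resilient pool 5 stood apart for Dlk1 (-0.43 log2 CPM, next 1.48) and Sv2a (8.75, next 8.49), and susceptible pool 4 for Mirg (9.79, next 9.52) and Eed (5.98, next 5.51). In blood, B6 susceptible 1 stood apart for miR-376b-5p (3.04, next 1.55) and D2 susceptible 3 for Bcl6 (1.26, next 2.49).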

How the results depend on the processing

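Over single calls, 545 of 685 alternative values kept their call, 140 lost it in the same direction, and none changed direction. Counts of calls in this section stand without the share of all rows called in the same fit, so they cannot be set against a background. Members called in the BNST between susceptible and control pools numbered 2 with only the compared groups fitted, and between susceptible and resilient pools 4 with sample weights. Leaving out 1 library gave 4 to 11 calls for resilient against control (4 without control 2, 6 without resilient 2), 1 to 5 for susceptible against control (1 without control 2, 2 without control 1, control 5 or susceptible 4) and 1 to 5 for susceptible against resilient (5 without susceptible 4, 2 without resilient 2). Called arm balances numbered 4 to 9 (9 without susceptible 4) and 9 with sample weights. Listed genes called in AGO2-bound mRNA numbered 2 to 5 (5 without resilient 3).

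Deviations of same-numbered pools correlated at -0.10 to 0.10 for miRNA and -0.17 to 0.14 for mRNA. These values cannot tell whether same-numbered pools shared a cohort or batch. The paper adjusted its AGO2-bound mRNA data for experimental cohort. With the replicate block the member calls numbered 9, 1 and 2 in the 3 BNST comparisons, 4 arm balances and 4 listed genes. No paired analysis by replicate number was possible for blood because its labels give none. With the prefix of the blood column names as a term, 0 members were called in each stress comparison and for strain by stress, and 1 listed mRNA, while B6 against D2 controls could not be fitted with it.

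In blood, leaving out 1 mouse gave 0 to 0 calls for the 3 B6 comparisons and for the strain by stress difference, 0 to 1 for D2 stress (1 without D2 control 1 or 2), 0 to 8 for B6 against D2 controls (8 without D2 control 2, 5 without B6 control 1, 3 without D2 control 1, 2 without B6 control 5 or D2 susceptible 1 or 4) and 1 to 2 listed mRNAs. Sample weights gave 1 call for B6 susceptible against control, 1 for D2 stress, 8 for the strains and 3 mRNAs. For the strains, quantile normalization gave 2, a pseudocount of 2 reads 2, voom precision weights 3 and a mean of at least 2 log2 CPM 0. For listed mRNAs voom precision weights gave 2 and that minimum 0. The next 2 settings were chosen after seeing the data. Groups of the column names gave 3 calls for D2 stress, 8 for the strains, 1 for strain by stress and 3 mRNAs. Without the 2 D2 mice there were 1, 8, 0 and 2. The cause of these changes was not tested. The blood members rested on 464 to 3694 reads a mouse over all 19.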
